A study of Mus musculus with 8 samples.

Results

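The mitochondrial ribosomal protein genes encode the nuclear-made protein parts of the mitoribosome, the ribosome inside mitochondria. They were taken as the entries of the deposited count table whose symbol starts with Mrpl (large subunit) or Mrps (small subunit) followed by a number, without pseudogenes and without entries that carry an appended number. Of 41730 entries, 78 matched this rule, 49 by a large subunit symbol and 29 by a small subunit symbol. A member was kept where at least 4 libraries had 10 or more counts, which left 73 of the 78, 47 of the large and 26 of the small subunit. The same filter left 12218 genes in the whole table.

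RNA came from CD8+ T cells of the mouse line OT-I, which carries a transgenic receptor for SIINFEKL, a peptide of ovalbumin. They had been cultured with bone marrow-derived dendritic cells (BMDCs) pulsed with that peptide, with either 2 µM of RGX-104, a small molecule that activates the liver X receptors (LXR), or the solvent DMSO, and were then sorted by flow cytometry. The RGX-104 group holds 4 libraries (replicates 5 to 8) and the control group, which received DMSO, holds 4 (replicates 1 to 4). All 8 share the OT-I genotype and the peptide-pulsed BMDCs, and RGX-104 was present in the whole co-culture, so T cells and BMDCs were both exposed. The labels give neither the age or number of mice nor the length of culture, and do not say whether libraries came from separate cultures, so the p-values speak only of how far these samples scatter, and that scatter may be technical.

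The mitoribosome translates the few messenger RNAs of the mitochondrial genome, all of which encode subunits of the respiratory chain and ATP synthase. Its RNAs, mt-Rnr1 in the small and mt-Rnr2 in the large subunit, are copied from mitochondrial DNA, while all its proteins are made in the cytosol and imported. T cells that have been activated grow, divide and enlarge their mitochondria, a process that needs mitochondrial translation. Some of the proteins belong to families shared with bacterial ribosomes and others occur only in mitochondria.

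The libraries held 13144704 to 15966972 counts, of which the 73 members took 96986 to 108370. Libraries were made from transcript ends, so counts were not divided by transcript length, and levels are given per gene in CPM (counts scaled to a common library total with TMM factors) without ranking one gene against another. Cd8a was at 388 to 406 CPM in RGX-104 and 265 to 289 CPM in control libraries and was called higher (log2 fold change 0.52 ± 0.05, edgeR adjusted p = 3.1e-07). Cd8b1 was called higher as well (0.39 ± 0.05, edgeR adjusted p = 2.96e-05). Cd3g was higher without overlap but not called (0.40 ± 0.12, edgeR adjusted p = 0.100). Cd3e had 0.15 ± 0.07 (edgeR adjusted p = 0.344) and Lck 0.03 ± 0.06. Cd3d was at 194 to 228 CPM in RGX-104 and 189 to 214 CPM in control libraries (0.08 ± 0.06, edgeR adjusted p = 0.619). Of 8 listed T cell markers, Cd2 was listed at 0 and Trac was not matched. All 6 that were tested were positive, with a median of 0.27. At an unadjusted p under 0.05, 4 were higher (66.7%, against 6.30% of all genes tested). Groups did not overlap, with RGX-104 higher, in 3 of the 6 (50%), against 3.89% of all genes tested. Summed, the T cell markers were at 1324 to 1369 CPM in RGX-104 and 1081 to 1105 CPM in control libraries. Cd4 was at no more than 0.134 CPM in any library. The summed level of 12 dendritic cell markers was 511 to 610 CPM in RGX-104 and 524 to 594 CPM in control libraries, most of it Ccr7, which T cells also express. Of the 8 dendritic cell markers tested, 6 had a negative log2 fold change and none was called by edgeR, with a median of -0.34. At an unadjusted p under 0.05, 3 were lower (37.5%, against 7.47% of all genes tested). Groups did not overlap, with RGX-104 lower, in 2 of the 8 (25%), against 4.26% of all genes tested. Batf3 was at 52.8 to 62.3 CPM in RGX-104 and 66.6 to 77.0 CPM in control libraries (-0.30 ± 0.08, edgeR adjusted p = 0.0620) and Ccl22 at 0.535 to 2.52 CPM in RGX-104 and 3.02 to 4.62 CPM in control libraries (-1.18 ± 0.41, edgeR adjusted p = 0.167), in both without overlap, and Fscn1 had -0.83 ± 0.32 (edgeR adjusted p = 0.224). Itgax (0.58 ± 0.45) reached at most 2.201 CPM in a library, Flt3 1.385, Xcr1 0.351 and Clec9a 0.189 CPM, and H2-Aa and H2-Ab1 were listed at 0. Which cells gave the Batf3 reads was not tested. The part of the T cell and dendritic cell markers in the members' values was not tested. The summed level of 8 macrophage and monocyte markers was 108 to 133 CPM in RGX-104 and 104 to 118 CPM in control libraries, most of it Cst3 and Ctss. The LXR target Abca1 rose by 3.39 ± 0.11 (log2 fold change ± SE, RGX-104 over control; adjusted p = 1.46e-15 by edgeR).

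Promoters are shown for the 3 members with the smallest p-values in each subunit among those with a listed promoter, to show where the motif found most often among the members stands. Each runs from 250 bases before to 50 bases after the first start in the RefSeq promoter table on GRCm38.p6, and capitals mark the letters CCGGAAG or their reverse complement CTTCCGG, the core that ETS family factors such as GABPA bind. The stretches are chr6:125191950-125192249 on the plus strand for Mrpl51, chr17:12916042-12916341 on the minus strand for Mrpl18, chr6:83108858-83109157 on the plus strand for Mrpl53, chr14:20393441-20393740 on the minus strand for Mrps16 (the first of 2 listed starts), chr7:28741772-28742071 on the minus strand for Mrps12 and chr2:28467816-28468115 on the plus strand for Mrps2. The start used is the 5' end of the gene in RefSeq for Mrpl51, Mrpl53 and Mrps12, but lies 1696 bp inside the gene for Mrpl18, 2115 bp for Mrps2 and 144 bp for Mrps16.
Mrpl51: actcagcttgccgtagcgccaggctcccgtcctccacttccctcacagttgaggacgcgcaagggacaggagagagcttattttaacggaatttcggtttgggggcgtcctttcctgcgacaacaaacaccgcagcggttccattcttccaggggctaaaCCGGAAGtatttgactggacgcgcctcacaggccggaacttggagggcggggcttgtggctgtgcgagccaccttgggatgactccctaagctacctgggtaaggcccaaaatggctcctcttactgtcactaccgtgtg
Mrpl18: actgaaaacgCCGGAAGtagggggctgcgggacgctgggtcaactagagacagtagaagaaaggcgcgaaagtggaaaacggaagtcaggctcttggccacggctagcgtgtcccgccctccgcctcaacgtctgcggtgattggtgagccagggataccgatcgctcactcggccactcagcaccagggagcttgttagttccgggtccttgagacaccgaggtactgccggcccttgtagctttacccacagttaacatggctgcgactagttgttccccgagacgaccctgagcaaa
Mrpl53: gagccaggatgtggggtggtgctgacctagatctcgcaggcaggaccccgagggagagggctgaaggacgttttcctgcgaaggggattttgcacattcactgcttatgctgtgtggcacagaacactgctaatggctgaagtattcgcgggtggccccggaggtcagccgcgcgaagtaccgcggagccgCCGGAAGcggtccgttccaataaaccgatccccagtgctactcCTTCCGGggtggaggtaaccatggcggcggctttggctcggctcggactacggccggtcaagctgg
Mrps16: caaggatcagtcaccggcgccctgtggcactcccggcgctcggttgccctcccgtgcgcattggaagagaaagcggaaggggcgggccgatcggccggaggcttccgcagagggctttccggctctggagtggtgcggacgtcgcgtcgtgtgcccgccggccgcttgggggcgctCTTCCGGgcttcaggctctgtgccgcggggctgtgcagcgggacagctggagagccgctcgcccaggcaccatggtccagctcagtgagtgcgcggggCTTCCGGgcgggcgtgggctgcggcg
Mrps12: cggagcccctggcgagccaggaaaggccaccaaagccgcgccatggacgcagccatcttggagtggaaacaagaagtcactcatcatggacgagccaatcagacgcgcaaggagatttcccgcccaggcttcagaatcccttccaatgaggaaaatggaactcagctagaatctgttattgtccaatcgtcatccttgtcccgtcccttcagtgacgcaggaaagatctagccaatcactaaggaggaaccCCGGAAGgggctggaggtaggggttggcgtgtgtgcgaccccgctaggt
Mrps2: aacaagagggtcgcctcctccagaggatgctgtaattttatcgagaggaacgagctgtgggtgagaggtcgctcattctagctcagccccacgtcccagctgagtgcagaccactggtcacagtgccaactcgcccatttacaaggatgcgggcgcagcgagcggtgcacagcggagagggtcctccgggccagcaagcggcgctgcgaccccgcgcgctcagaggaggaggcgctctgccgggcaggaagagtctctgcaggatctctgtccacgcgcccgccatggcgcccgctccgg
The ETS letters stood at 7 places in 5 of these 6 promoters. Counted from the start used, the match in Mrpl51 began 90 bases before, in Mrpl18 at 240 bases before and in Mrpl53 at 59 and 16 bases before. In Mrps16 one match began 74 bases before and another 24 bases after the start, and in Mrps12 the match began 1 base after it. Mrps2 held none in this window at its internal start.

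RefSeq promoters were listed for 69 of the 78 members, 47 of them at the gene's 5' end (within 10 bp) and 22 further inside the gene, and both strands of each were searched for 6 motifs chosen after the expression values had been seen. The ETS letters CCGGAAG were found in 25 of 69 (36.2%), against 19.3% of the promoters of all tested genes and 9.12% of all 27025 listed promoters. The letters GCGCA and GCGC with any base between them, for NRF1, a regulator of nuclear genes for mitochondria, were found in 13 (18.8%), against 11.01% of tested and 4.78% of all promoters. The letters AAGATGGCG of YY1 were found in 8 (11.6%), against 3.44% of tested and 1.49% of all promoters. None of these 3 motifs contains another, and 40 of 69 members (58.0%) held at least 1, against 30.3% of tested and 14.0% of all promoters. The E-box CACGTG, which MYC and its relatives bind, was found in 5 (7.25%), against 10.5% of tested and 7.24% of all promoters. Neither the ATF4-type letters TGATGNAA (2.22% of tested and 4.06% of all promoters) nor 2 copies of AGGTCA spaced by 4 bases, the classic LXR element (0 of the tested and 0.0111% of all promoters), were found in any of the 69. The median GC content was 58.3% for members and 60.7% for tested promoters. The 22 kept members with the ETS letters had a median log2 fold change of 0.088, and the 42 without them 0.080. For NRF1 the medians were 0.086 in 13 with and 0.084 in 51 without the letters. For YY1 they were 0.051 in 8 with and 0.087 in 56 without, and for the E-box 0.067 in 5 with and 0.086 in 59 without.

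**Figure D1:**
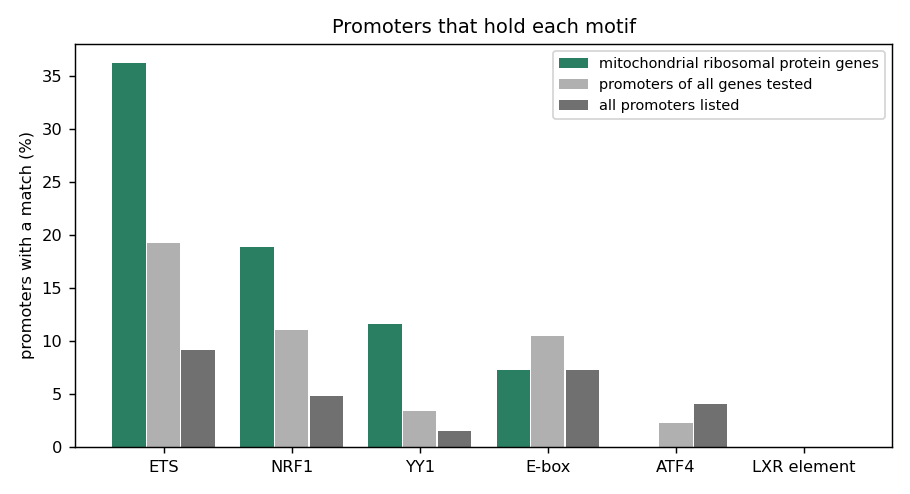
Percentage of promoters (250 bases before to 50 after the start, both strands) that hold each motif, for 69 mitochondrial ribosomal protein genes (green), the promoters of all genes tested (light grey) and all 27025 listed promoters (dark grey). The green bars for ETS (36.2%), NRF1 (18.8%) and YY1 (11.6%) stand above both grey bars. No member held the ATF4-type letters (2.22% of tested promoters) or the LXR element (0 of the tested promoters). Both are too rare among tested promoters for their absence from 69 members to set the members apart.

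With RGX-104, RNA of Mrpl51 and Mrpl18, both of the large subunit, was higher than in control, and no member was lower by edgeR, DESeq2 or limma-voom. These were 2 of 73 tested members (2.74%), where 0.884% of all 12218 genes were called higher and 1.75% lower at an adjusted p under 0.05 (edgeR quasi-likelihood test, Benjamini-Hochberg). Most of the other members sat slightly above control. The median log2 fold change of the 73 was 0.08, against 0.00 over all genes tested, and 51 of 73 (69.9%) were positive, against 50.6% of all. Among the 5625 tested genes with a mean of at least 20 CPM and no more than the highest member, the median was 0.02 and 55.4% were positive. The median was between 0.06 and 0.09 under all 16 alternative settings tried, scalings included.

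Mrpl51, a large subunit protein found only in mitochondria (chromosome 6, 125192200 to 125194392, GRCm38.p6), had 90.6, 89.99, 94.8 and 96.6 CPM in the RGX-104 libraries, against 80.6, 72.4, 75.9 and 74.9 CPM in the control libraries. Every RGX-104 library lay above every control library. The means were 93.0 ± 3.21 CPM in RGX-104 and 75.9 ± 3.45 CPM in control (SD, n = 4 each), and the log2 fold change was 0.29 ± 0.07 (SE; edgeR adjusted p = 0.0241). Mrpl18 (chromosome 17, 12911345 to 12917787) belongs to the central protuberance, the crown of the large subunit. It had 283, 267, 257 and 276 CPM with RGX-104, against 230.2, 247, 224 and 229 CPM in control. These groups did not overlap either, and the log2 fold change was 0.22 ± 0.05 (edgeR adjusted p = 0.0246). Exons of Mrpl18 overlap those of Tcp1, a chaperonin subunit gene on the opposite strand, over 141 bp, and Tcp1 itself had a log2 fold change of -0.04 (edgeR adjusted p = 0.766).

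Neither call held in every fit with 1 library left out. Mrpl51 lost its call without control replicate 2, 3 or 4 or RGX-104 replicate 7 or 8, with edgeR adjusted p from 0.0558 to 0.0845 in those fits. Mrpl18 lost its call without control replicate 1, 3 or 4 or RGX-104 replicate 5, 6 or 8, with edgeR adjusted p from 0.0576 to 0.105. Over all 16 alternatives the log2 fold change stayed between 0.27 and 0.32 for Mrpl51 and between 0.20 and 0.25 for Mrpl18, with adjusted p from 0.00169 to 0.0845 for Mrpl51 and from 0.00169 to 0.105 for Mrpl18.

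**Figure D2:**
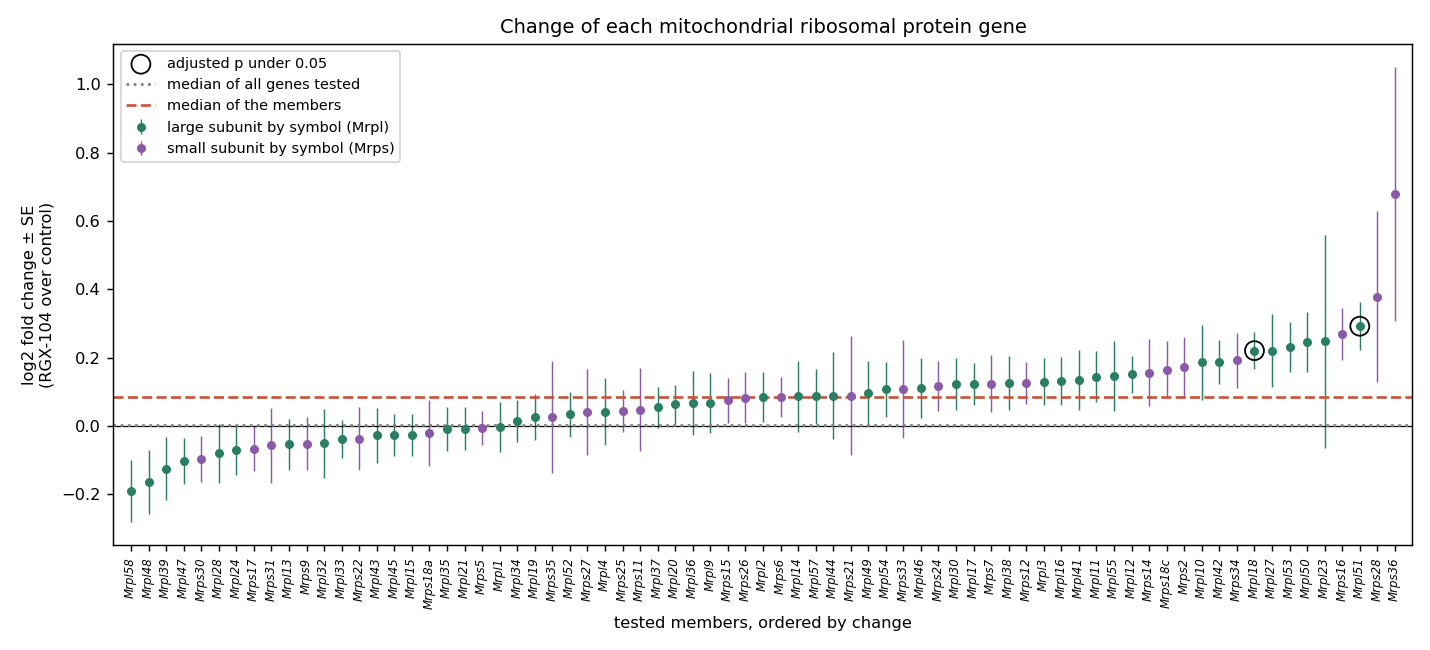
Log2 fold change (RGX-104 over control) of each of the 73 tested members in order of size, with bars of 1 SE from edgeR, green for the large and purple for the small subunit by symbol. Mrpl51 and Mrpl18 are circled as called, and the median of the members (0.08, dashed) lies above that of all genes tested (0.00, dotted).

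A further 3 members, Mrps16, Mrpl50 and Mrpl17, had all 4 RGX-104 libraries above all 4 control libraries without being called. That made 5 of 73 (6.85%) with separate groups in this direction, against 3.89% of all genes tested, and 0 in the other direction, against 4.26%. Among the genes of like level the shares were 5.83% higher and 4.98% lower. At an unadjusted p under 0.05, 9 members were higher (12.3%), against 6.30% of all genes tested and 9.97% of those of like level, and 1 was lower (1.37%), against 7.47% and 8.80%. Of the 67 members with at least 20 CPM, 7.46% were separate and higher, and 13.4% were higher and 1.49% lower at that unadjusted p.

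Mrps16, a small subunit protein of a bacterial family whose loss causes a mitochondrial disease in humans, had 90.7, 84.1, 83.2 and 90.9 CPM with RGX-104, against 77.2, 75.9, 70.1 and 66.2 CPM in control. Its log2 fold change was 0.27 ± 0.08, the highest of the members with at least 20 CPM after Mrpl51, with an edgeR adjusted p of 0.0623 (0.0153 to 0.177 over the alternatives). Mrpl50, a mitochondria-specific protein of the large subunit, had 60.8, 57.1, 62.1 and 70.8 CPM with RGX-104, against 55.6, 53.4, 49.9 and 52.2 CPM in control. The gap between its groups was small beside the spread of the RGX-104 libraries, and the log2 fold change was 0.25 ± 0.09 (edgeR adjusted p = 0.179).

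Mrpl53, which lies at the base of the stalk, had 109, 119, 125 and 126 CPM with RGX-104, against 91.9, 103, 101 and 112 CPM in control. Only the lowest RGX-104 library fell inside the control range, and the log2 fold change was 0.23 ± 0.07 (edgeR adjusted p = 0.110). GENCODE M21 lists Gm42688 on the same strand with 695 bp of shared exons, so reads of this pair could not be told apart with certainty. Mrpl42, a mitochondria-specific large subunit protein, had 121, 136, 135 and 128 CPM with RGX-104, against 112, 111, 111 and 121 CPM in control (log2 fold change 0.19 ± 0.06, edgeR adjusted p = 0.161). Control replicate 4 alone reached the RGX-104 range.

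**Figure D3:**
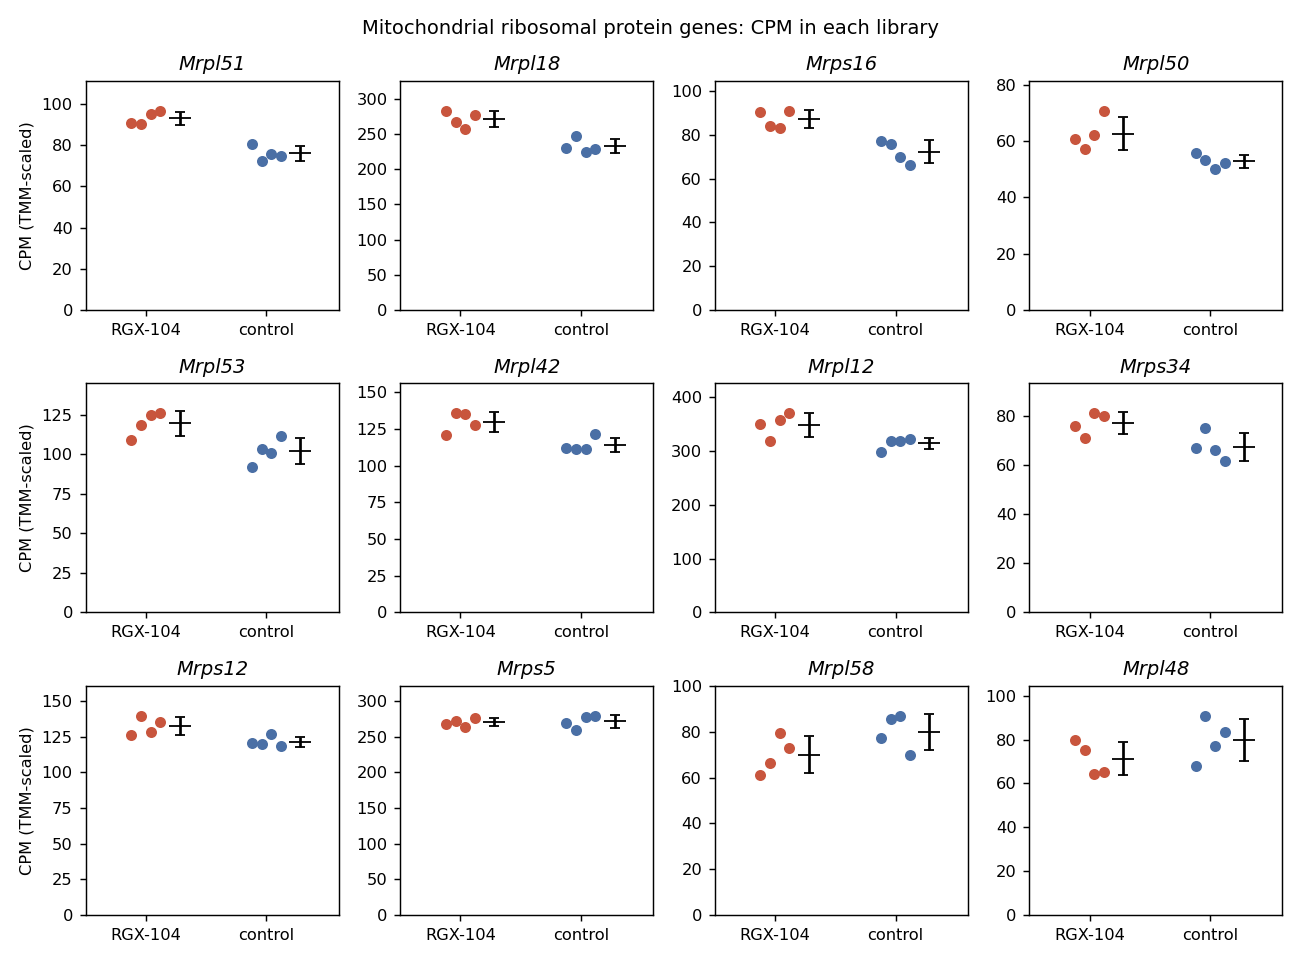
CPM of 12 members in each library, with RGX-104 (red) left of control (blue), each point 1 library and the black mark the mean ± SD of 4. All 4 RGX-104 points lie above all 4 control points for Mrpl51, Mrpl18, Mrps16 and Mrpl50, while those of Mrps5 share the control range.

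The stalk of the large subunit recruits translation factors, and all 5 of its tested proteins had a positive log2 fold change without a call (Mrpl53, Mrpl10 0.19, Mrpl12 0.15, Mrpl11 0.14 and Mrpl54 0.11). Mrpl12, the stalk protein that contacts those factors, had 349.9, 319, 358 and 370.4 CPM with RGX-104, against 299, 319, 318 and 322 CPM in control. RGX-104 replicate 6 lay among the controls and the other 3 above them, with a log2 fold change of 0.15 ± 0.05 (edgeR adjusted p = 0.177). The proteins around the peptidyl transferase centre, where peptide bonds form, were Mrpl2 (0.08), Mrpl3, Mrpl16 (0.13) and Mrpl27 (0.22), again all positive and none called. Mrpl3 had 118, 105, 105 and 106 CPM with RGX-104, against 96.0, 98.4, 94.7 and 107 CPM in control (log2 fold change 0.13 ± 0.07, edgeR adjusted p = 0.418).

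The central protuberance held the called Mrpl18 and both members with the most negative change. Of its 8 tested proteins 6 were positive, among them Mrpl27, Mrpl55 (0.15), Mrpl38 (0.13), Mrpl46 (0.11) and Mrpl52 (0.03), with a median of 0.12. Mrpl58, a peptidyl-tRNA hydrolase that frees stalled mitoribosomes and also sits in the particle, had 61.2, 66.4, 79.6 and 73.0 CPM with RGX-104, against 77.3, 85.5, 87.0 and 70.0 CPM in control. The groups overlapped, and the log2 fold change was -0.19 ± 0.09 (edgeR adjusted p = 0.358). Mrpl48 had 79.9, 75.4, 64.5 and 65.4 CPM with RGX-104, against 68.0, 90.8, 77.0 and 83.4 CPM in control (-0.16 ± 0.09, edgeR adjusted p = 0.463). RGX-104 replicates 7 and 8 lay below the lowest control.

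Proteins that line the exit of the peptide tunnel showed both signs. Mrpl45, which holds the mitoribosome at the inner membrane, had 158, 143, 159 and 167 CPM with RGX-104, against 167, 154, 158 and 161 CPM in control. Its groups overlapped, with RGX-104 replicate 6 below every control, and it had a log2 fold change of -0.03 ± 0.06 (edgeR adjusted p = 0.897). Mrpl17 (0.12) and Mrpl23 (0.25 ± 0.31) were positive and Mrpl24 (-0.07) and Mrpl47 (-0.10) negative. Mrpl23 had 4.42, 3.62, 4.55 and 3.49 CPM with RGX-104, against 2.64, 2.95, 5.35 and 2.58 CPM in control, the fewest reads of any kept large subunit gene.

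The other 16 large subunit proteins of bacterial families split evenly, 8 positive and 8 negative, with none called and a median log2 fold change of 0.01. They ran from -0.08 for Mrpl28 to 0.12 for Mrpl30. The positive ones were Mrpl4, Mrpl9, Mrpl14, Mrpl19, Mrpl20, Mrpl30, Mrpl34 and Mrpl36, and the negative ones Mrpl1, Mrpl13, Mrpl15, Mrpl21, Mrpl28, Mrpl32, Mrpl33 and Mrpl35. Of the other 10 mitochondria-specific proteins with an Mrpl symbol, 8 were positive (Mrpl51, Mrpl50, Mrpl42, Mrpl41, Mrpl49, Mrpl44, Mrpl57 and Mrpl37) and 2 negative (Mrpl39 and Mrpl43), with a median of 0.09. Mrpl39 had 47.4, 50, 42.2 and 47.1 CPM with RGX-104, against 53.3, 54.9, 48.1 and 47.2 CPM in control (-0.12 ± 0.09, edgeR adjusted p = 0.604).

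Some members carry a symbol that does not match their place. Mrps30 and Mrps18a are built into the large subunit in mammals. Mrps30 had 90.1, 86.6, 87.4 and 93.4 CPM with RGX-104, against 93.1, 97.4, 100.2 and 91.8 CPM in control (log2 fold change -0.10 ± 0.07, edgeR adjusted p = 0.560). RGX-104 replicates 5, 6 and 7 lay below the lowest control and replicate 8 within the control range. Mrps18a had 47.4, 50.1, 55.8 and 53.7 CPM with RGX-104, against 60.9, 46.7, 52.1 and 50.3 CPM in control (-0.02 ± 0.10, edgeR adjusted p = 0.951). Mrps36 is now known as a subunit of the oxoglutarate dehydrogenase complex of the citric acid cycle. It had 3.01, 1.95, 3.88 and 5.24 CPM with RGX-104, against 1.42, 2.08, 3.09 and 2.18 CPM in control, and its log2 fold change of 0.68 ± 0.37 rested on 22 to 69 counts per library (edgeR adjusted p = 0.436). RefSeq lists pseudogenes named after Mrpl23, Mrpl27, Mrpl48 and Mrps36, so the counts of these 4 are uncertain.

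In the small subunit by symbol no member was called by edgeR. At an unadjusted p under 0.05, 2 of 26 were higher, Mrps16 and Mrps34 (7.69%, against 6.30% of all genes tested). At that threshold 0 were lower, against 7.47% of all genes tested. DESeq2 called Mrps16 and limma-voom called none. Of the 26, which include Mrps30, Mrps18a and Mrps36, 19 were positive, with a median of 0.08. The large subunit by symbol had the same median of 0.08, with 32 of 47 positive. Mrps34, in the foot of the small subunit, had 76.1, 71.3, 81.2 and 80.2 CPM with RGX-104, against 67.1, 75.1, 66.5 and 61.6 CPM in control (0.19 ± 0.08, edgeR adjusted p = 0.282). Its exons overlap those of Nme3 on the same strand over 763 bp and those of Mapk8ip3 on the opposite strand over 1309 bp, so its counts are uncertain. Mrps12, a protein of the decoding centre, had 126, 139, 128 and 135 CPM with RGX-104, against 121, 120, 127 and 118 CPM in control. RGX-104 replicate 5 alone fell within the control range (0.13 ± 0.06, edgeR adjusted p = 0.367).

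Mrps5, which lines the channel where messenger RNA enters, had 268, 272, 264 and 277 CPM with RGX-104, against 269, 259.6, 278 and 279 CPM in control. All RGX-104 libraries lay within the control range, with a log2 fold change of -0.01 ± 0.05 (edgeR adjusted p = 0.973). Mrps2, mutated in a human mitochondrial disease, had 63.8, 82.4, 75.8 and 81.4 CPM with RGX-104, against 68.4, 69.6, 69.3 and 61.7 CPM in control. RGX-104 replicate 5 lay within the control range and the other 3 above it (0.17 ± 0.09, edgeR adjusted p = 0.384). In the head of the small subunit Mrps14 (0.16), Mrps24 (0.12), Mrps7 (0.12), Mrps33 (0.11) and Mrps35 (0.03) were positive, and Mrps9 (-0.05) and Mrps31 (-0.06) negative. All 4 platform proteins were positive, Mrps18c (0.16), Mrps21 (0.09), Mrps6 (0.08) and Mrps11 (0.05). In the body and foot 8 of 11 were positive, Mrps28, Mrps16, Mrps34, Mrps12, Mrps26, Mrps15, Mrps25 and Mrps27, and Mrps5, Mrps22 (-0.04) and Mrps17 (-0.07) were negative. These 3 groups of proteins held no called gene by edgeR, and their 22 tested members are the small subunit apart from Mrps2, Mrps36, Mrps30 and Mrps18a.

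**Figure D4:**
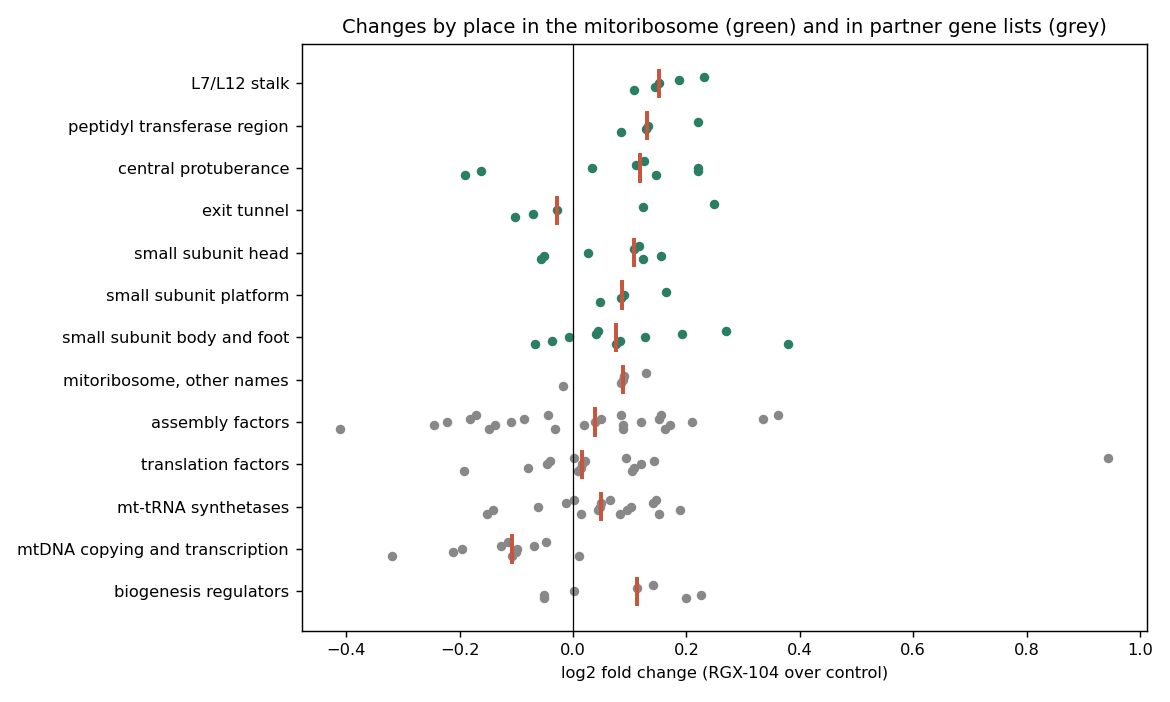
Log2 fold change (RGX-104 over control) of each tested gene, 1 point a gene, by place in the mitoribosome (green) and in lists of partner genes (grey), with the median of each list in red. The 5 stalk proteins and the 4 around the peptidyl transferase centre lie right of 0, while 10 of 11 genes of mitochondrial DNA copying and transcription lie left of it.

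The 5 members that were not kept were Mrpl22, Mrpl40, Mrps10, Mrps18b and Mrps23, which had at most 7 counts in any library. Each of these symbols also has an entry with an appended number in the table, and those entries held at most 3 counts. Their values are not read as absence of the transcript, and no fold change is given. Mrps35 has such an entry as well and was kept, at 13.1 to 18.4 CPM in RGX-104 and 12.8 to 17.4 CPM in control libraries. Of the members not kept, Mrps18b had the highest count in a library (7). Of those kept, Mrps36 had the fewest reads (22 to 69 counts), so neither lay close to the cutoff.

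Replicates of a kept member differed by a median of 7.28% (coefficient of variation within groups), where counting noise alone gives a median of 2.80%. The spread ran from 1.91% for Mrps25 to 38.0% for Mrps28, and 4 members exceeded 20%, Mrps28, Mrps36, Mrpl23 and Mrps21. Mrps28 had 20.1, 17.7, 8.83 and 22.2 CPM with RGX-104, against 11.1, 9.40, 11.02 and 21.3 CPM in control, with RGX-104 replicate 7 below every control and control replicate 4 among the high RGX-104 libraries (log2 fold change 0.38 ± 0.25, edgeR adjusted p = 0.540).

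Summed over the kept members of the large subunit, RGX-104 libraries 5 to 8 held 5029, 5009, 5142 and 5209 CPM, against 4917, 4860.5, 4843 and 4903 CPM in control libraries 1 to 4. The small subunit sums were 2044, 2048, 2053 and 2153 CPM with RGX-104, against 2005, 1979, 1981 and 1984 CPM in control. Every RGX-104 library lay above every control library in both sums. The ratio of large to small was 2.46 ± 0.04 in RGX-104 and 2.46 ± 0.01 in control (SD, n = 4 each), with overlapping groups. Subunits are by symbol in these sums and in the ratio, so Mrps30, Mrps18a and Mrps36 were counted as small. Values by place in the particle were not computed. Of the 73 members, 43, 45, 51 and 53 lay above their control mean in RGX-104 libraries 5 to 8. In control libraries 1 to 4 the counts were 36, 35, 33 and 36. That mean was taken from the control libraries themselves, so their counts are no independent comparison. The same count over all genes tested was not made. In bulk RNA, more transcripts per cell and more cells rich in them cannot be told apart.

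The mean levels of both mitoribosomal RNAs were below control without a call. mt-Rnr2 was at 32119, 29748, 26262 and 26917 CPM in RGX-104 libraries, against 33100.2, 31538, 30931 and 30286 CPM in control libraries, a log2 fold change of -0.13 ± 0.04 (edgeR adjusted p = 0.161). mt-Rnr1 was at 16628, 14977, 14228 and 12875 CPM in RGX-104, against 16777, 15603, 15937 and 15325 CPM in control (-0.12 ± 0.05, edgeR adjusted p = 0.292). RGX-104 replicate 5 lay within the control range for both and the other 3 below it. Without that library both fell by the test, mt-Rnr2 with a log2 fold change of -0.19 (edgeR adjusted p = 0.00496, and 0.0989 to 0.396 in the other alternatives) and mt-Rnr1 with -0.18 (adjusted p = 0.0153, and 0.214 to 0.634 in the others).  Mki67, a marker of dividing cells, was at 243, 193, 155 and 135 CPM in RGX-104 replicates 5 to 8, against 222 to 245 CPM in control (log2 fold change -0.34 ± 0.11, edgeR adjusted p = 0.128). It had the most negative change of 6 listed markers of dividing cells, none called, with a median of -0.10. Cdk1 (-0.15), Ccnb1 (-0.12) and Top2a (-0.09) were negative too, Pcna (0.03) was positive, and Mcm2 (0.11) was at 267 to 278 CPM in RGX-104 and 243 to 259.9 CPM in control libraries, without overlap. Summed, the 6 were at 1591 to 1988 CPM in RGX-104 and 1878 to 1918 CPM in control libraries. RGX-104 replicates 7 and 8 had the highest sums of members, the lowest mt-Rnr1 and the lowest Mki67, and the part of cell division or library quality in the members' values was not tested.

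**Figure D5:**
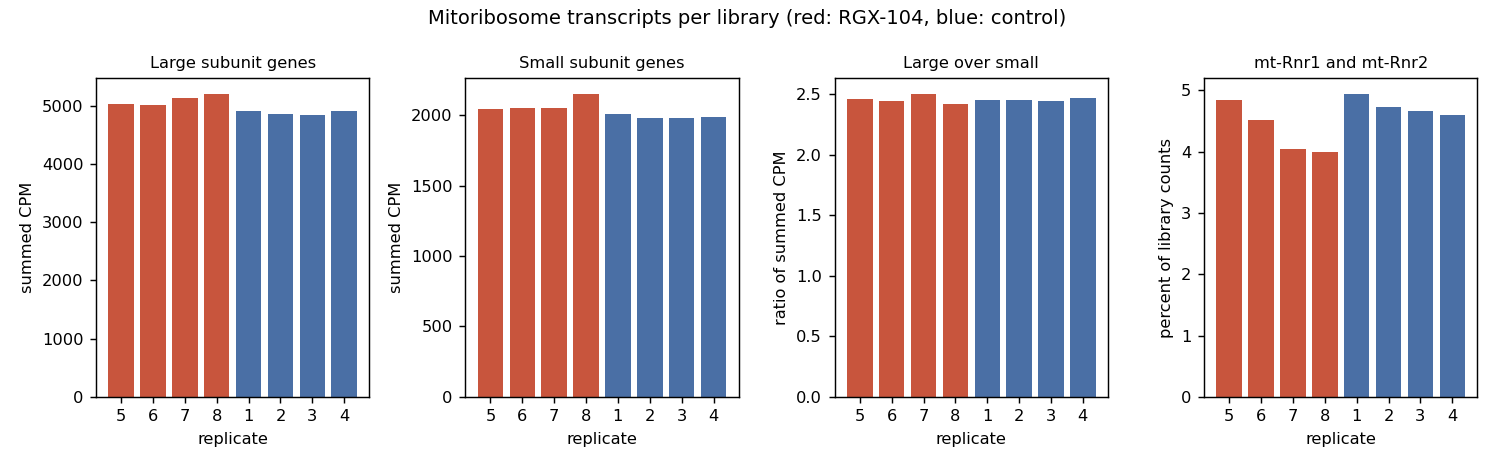
Summed CPM of the kept large and small subunit genes by symbol, their ratio, and the percentage of counts from mt-Rnr1 and mt-Rnr2, for RGX-104 replicates 5 to 8 (red) and control replicates 1 to 4 (blue), each bar 1 library. Both sums are higher in every RGX-104 library, the ratio is 2.42 to 2.51 in RGX-104 and 2.44 to 2.47 in control, and the percentage of the 2 RNAs is lowest in RGX-104 replicates 7 and 8.

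Genes that work with the mitoribosome held no called member in any of 6 lists by edgeR. At an unadjusted p under 0.05 the lists held, as higher and lower, 0 and 0 proteins with other names, 2 and 1 assembly factors (8% and 4%), 1 and 1 translation factors (6.67% each), 0 and 0 tRNA synthetases, 0 and 1 genes for mitochondrial DNA (0 and 9.09%), and 1 and 0 regulators (14.3% and 0). Of all genes tested, 6.30% were higher and 7.47% lower. Groups did not overlap for Ddx28 (higher, 4% of its list), Mtrf1 (higher) and Gfm2 (lower, 6.67% each). The same held for Mgme1 and Polg (lower, 18.2%), against 3.89% higher and 4.26% lower of all genes tested. Ddx28 and Mgme1, named here, were called by DESeq2 and not by limma-voom. Of the mitoribosome proteins with other names, Chchd1 (0.13), Gadd45gip1 (0.09), Aurkaip1 (0.09) and Ptcd3 (0.08) were positive and Dap3 (-0.02) negative, with a median of 0.09. Among 25 tested assembly factors the median was 0.04 and 14 were positive. The RNA helicase Ddx28, which acts on the large subunit, had 30.4, 27.3, 34.1 and 31.2 CPM with RGX-104, against 22.1, 23.4, 25.4 and 24.8 CPM in control. Its groups did not overlap, with a log2 fold change of 0.36 ± 0.12 (edgeR adjusted p = 0.131, 0.0464 to 0.316 over the alternatives). Eral1, a chaperone of the small subunit RNA, had a log2 fold change of 0.33 ± 0.15 and Tfb1m, which methylates that RNA, -0.41 ± 0.19.

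Of 15 tested translation factors 11 were positive, with a median of 0.02. The release factor relative Mtrf1 had a log2 fold change of 0.94 ± 0.32 at only 1.75 to 5.89 CPM (edgeR adjusted p = 0.151), the recycling factor Gfm2 had -0.19 ± 0.08, and the elongation factor Tufm 0.12 ± 0.11. The RNA-binding Lrpprc and Slirp had 0.01 and 0.11. The 17 tested synthetases that charge mitochondrial tRNAs had a median of 0.05. Of 11 tested genes for copying and transcribing mitochondrial DNA 10 were negative, with a median of -0.11. Mgme1, an exonuclease for mitochondrial DNA, had 31.7, 35.8, 31.7 and 33.8 CPM with RGX-104, against 46.3, 40.6, 39.1 and 40.0 CPM in control (-0.32 ± 0.10, edgeR adjusted p = 0.123, 0.0404 to 0.307 over the alternatives). Its groups did not overlap. The packaging factor Tfam (-0.11), the polymerase Polrmt (-0.07) and the DNA polymerase Polg (-0.21) were not called either. Among regulators, Nrf1 was at 0.00, Gabpa at -0.05, Myc at 0.14 and the coactivators Pprc1 at 0.20 and Ppargc1b at 0.22 on the log2 fold change scale.

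Beside other large complexes, 73 tested cytosolic ribosomal protein genes had a median log2 fold change of -0.01 with 30 positive (41.1%), and 73 tested nuclear subunits of oxidative phosphorylation had a median of 0.03 with 47 positive (64.4%). The members had 0.08 and 69.9%. The differences between these lists were not tested.

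Many members share their start region with another gene. Of 78 members, 33 (42.3%) have the 5' end of a protein-coding gene on the opposite strand within 1000 bp of their own in GENCODE M21, against 10.9% of 21938 protein-coding genes. Those 21938 include genes that were not tested here, and the share among tested genes was not computed. In 27 such pairs both genes were tested, and 12 pairs had log2 fold changes of the same sign. Of the 27 partners 11 were positive, with a median of -0.04. Mrpl51 starts 100 bp from Ncapd2, a condensin subunit gene, which had a log2 fold change of -0.10 (edgeR adjusted p = 0.574). Mrpl49 starts 59 bp from Fau, which encodes a cytosolic ribosomal protein and had -0.18 (edgeR adjusted p = 0.0509). The only called partner was Mtbp, beside Mrpl13, with -0.42 (edgeR adjusted p = 0.0218). Exons of 27 of the 78 members share 100 bp or more with those of a further gene.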

How the data were processed

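Gene counts of 8 libraries (4 RGX-104, 4 control) were analysed. The authors deposited whole-number read counts per gene symbol, not normalised; libraries used the Lexogen 3' FWD kit on total RNA, per the labels. The tools STAR 2.7.8a, R 4.1.0 and DESeq2 1.4 and the build GRCm38 come from the submitters' processing notes. Not given in the sources used here are the counting tool, annotation, strand setting, the treatment of multiply mapped reads and any use of molecular identifiers. Priming from A-rich stretches and reads shared between gene copies can therefore move single values.

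Genes with 10 or more counts in at least 4 libraries were fitted with edgeR 4.0.16 in R 4.3.3 (TMM, estimateDisp, glmQLFit, glmQLFTest, two-sided, group as the only term), with Benjamini-Hochberg adjustment over 12218 genes and a threshold of 0.05. SE is the log2 fold change divided by the square root of F. The common dispersion equalled a biological coefficient of variation of 14.5%. Libraries of 1 group, taken in pairs, differed with 6.51 to 9.98 times the variance of counting noise (chi-square per degree of freedom), so none was a copy. Alternatives used limma-voom (limma 3.58.1), DESeq2 1.42.0, other scalings and filters, robust estimation, removal of entries with appended numbers, and each library left out. The script was run on simulated data with less spread than the 14.5% found here, so that run does not show how the fit performs on these data.

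The members and lists were chosen with earlier results of these data known, so lists get counts and medians and no p. Full values are given for called members, the 4 smallest p and the extreme levels of each subunit, the 3 largest changes in each direction at a mean of at least 20 CPM, and 10 always shown; of other lists, the 3 smallest p and some fixed genes. Mrpl17 and Mrps28 and the neighbouring genes were named after their values were seen. Coordinates and promoters are RefSeq GRCm38.p6 (1-based) and overlaps GENCODE M21; all 78 members matched both. No column belonged to another series (0 columns). mt-encoded messenger RNAs were not analysed here.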

Additional observations from a re-analysis of the deposited data

Results flagged for a closer look

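In each group of 4 libraries the most distant library of every kept member was compared with the other 3 by Dixon's ratio. It exceeded the 95% critical value of 0.829 in 17 of 146 groups, where chance gives about 1 in 20, or 7.3. RGX-104 replicate 5 accounted for 5 of these, control replicate 4 for 4, control replicates 1 and 3 for 3 each, and control replicate 2 and RGX-104 replicate 8 for 1 each.

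RGX-104 replicate 5 stood low for Mrpl20 (188 CPM, the others 209 to 212), Mrps6 (143, the others 154 to 156) and Mrpl28 (63.4, the others 74.8 to 76.6), and high for Mrps35 (18.4, the others 13.1 to 14.0) and Mrpl3 (118, the others 105 to 106). RGX-104 replicate 8 stood high for Mrps21 (19.1 CPM, the others 15.0 to 15.3). Control replicate 4 stood high for Mrps28 (21.3 CPM, the others 9.40 to 11.1) and Mrpl42 (121, the others 111 to 112), and low for Mrps2 (61.7, the others 68.4 to 69.6) and Mrpl17 (132, the others 146). Control replicate 1 stood high for Mrps15 (150.5 CPM, the others 128 to 129.9) and Mrpl43 (109.8, the others 84.9 to 88.6), and low for Mrpl12 (299, the others 318 to 322). Control replicate 3 stood high for Mrpl23 (5.35 CPM, the others 2.58 to 2.95), Mrpl52 (160.2, the others 146 to 148) and Mrps6 (152, the others 140.3 to 142). Control replicate 2 stood low for Mrpl35 (126 CPM, the others 149 to 152).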

How the results depend on the processing

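No paired analysis was made because replicate numbers are not shared between the groups. The labels do not say whether a control and an RGX-104 library belong together, so a pairing may have been missed. With DESeq2, 193 genes were called higher in place of 108, and 4 members in place of 2, with Mrpl53 and Mrps16 beside Mrpl51 and Mrpl18. Leaving out 1 library gave 61 to 98 genes called higher, 144 to 222 lower, 0 to 1 members higher and 0 to 0 lower. The members' median log2 fold change ran from 0.06 to 0.09 in these fits, that of the large subunit from 0.05 to 0.09 and of the small from 0.07 to 0.09. Subunits are by symbol here and below. Summed CPM of the large subunit ran from 5055 to 5125 in RGX-104 and 4869 to 4898 in control, of the small from 2046 to 2087 in RGX-104 and 1985 to 1992 in control, and the ratio from 2.44 to 2.47 in RGX-104 and 2.45 to 2.46 in control. The other scalings, filters, limma-voom, robust estimation and removal of entries with appended numbers called the same 2 members. Of 752 values of 47 single genes under alternatives, 735 kept their side of the threshold, 11 lost and 6 gained a call, and none of them turned a called direction round. For a typical member the depth was ample beside the spread: median counting noise was 2.80% and the median spread between replicates 7.28%. Counting noise was 15.5% for Mrps36 and 13.5% for Mrpl23, which had few reads. For Mrps25 counting noise (2.48%) exceeded the spread (1.91%).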
